A study of Mus musculus with 2 samples.

Results

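The basement membrane gene set described here holds 10 genes, taken by symbol from the 32285 genes listed in the count tables of both libraries: Col4a1, Col4a2, Col15a1, Col18a1, Lama4, Lamb1, Lamc1, Nid1, Nid2 and Hspg2. All 10 were found, and none was chosen by its measured value. A basement membrane is a thin sheet of matrix under epithelia and endothelia and around muscle and mural cells. Laminin heterotrimers polymerise at the cell surface, collagen IV forms a crosslinked network beside them, and nidogens and the heparan sulfate proteoglycan perlecan join these networks. In a heart valve the endothelium that covers the leaflet rests on such a sheet, with the interstitial cells of the leaflet beneath it.

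Mitral leaflets of mouse embryos at E17.5 were dissociated with 0.05% trypsin and profiled by droplet single-cell RNA-seq from the 3′ end of transcripts. The control group was wild type. The mutant group had the genotype Nfatc1-Cre, Dicer loxp/loxp, which places recombinase activity in the endocardial lineage and targets Dicer1, whose product cuts microRNA precursors. The labels name neither the insertion behind Nfatc1-Cre nor the part of Dicer1 between the loxP sites. Each genotype was a pool of 3 to 4 hearts and gave 1 library, so genotype, pool, sex of the embryos and library preparation cannot be told apart. No test between genotypes was possible and no p-value is given. Levels are CPM, the UMIs of a gene per 1000000 UMIs of a cell class in a library. Every interval is a 95% interval that covers counting error only, since cells of 1 pool are not replicates.

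The control library kept 10347 cells with a median of 5671 UMIs and the mutant library 6190 cells with a median of 9490.5 UMIs. They shared 11 cell barcodes among kept cells. Female-type cells, which hold Xist and no Y-linked transcript, made up 93.5% of the control and 42.5% of the mutant cells, and male-type cells 1 cell and 37.1%. Marker genes named 21 of 24 clusters, and 3 were left without a name (14.5% of the control and 13.2% of the mutant library). Clustering used none of the 10 genes and none of 28 further basement membrane components, so levels in the classes were not used to draw them.

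The 6 classes compared were 3 kinds of endothelium, mural cells, stroma and heart muscle. Valve endothelial-like cells, 1259 in the control and 314 in the mutant library, formed cluster 5 (led by Npr3 and Plvap), cluster 14 (Aqp8, Enpp2 and Prox1) and cluster 15 (Pthlh and Wnt4), and each held at least 13 of 14 pan-endothelial markers. Coronary endothelial-like cells (1930 and 1702) were led by Gpihbp1 and Fabp4, and arterial endothelial-like cells (298 and 336) by Cxcl12 and Gja5. Mural-like cells (334 and 358) were led by Fabp7 and Rgs5. Stromal-like cells (3802 and 1738) formed clusters 1, 2, 6 and 7, led by Matn4, by cell cycle genes, by Dpep1 and by Dlk1 and Smoc2. Muscle-like cells (450 and 350) were led by Ttn and Myh7 in the larger of their 2 clusters, so the dissected material held myocardium and coronary vessels beside leaflet tissue.

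Together the 10 genes took 1.03% of all UMIs of arterial endothelial-like cells in the control library and 1.01% in the mutant library, the highest share of the 6 classes. The share was 0.570% and 0.593% in coronary endothelial-like, 0.582% and 0.554% in mural-like and 0.395% and 0.332% in valve endothelial-like cells. Stromal-like cells stood at 0.221% and 0.300%, and muscle-like cells at 0.0514% and 0.0517%. Against stromal-like cells of the control library, 7 of 10 members were at least 2-fold higher in arterial endothelial-like cells, where 13.9% of all genes were, and 5 in coronary endothelial-like cells, where 9.73% were. In valve endothelial-like cells 3 members (Col4a1, Col18a1 and Hspg2) were at least 2-fold higher, beside 10.1% of all genes, and 2 (Col15a1 and Nid2) at least 2-fold lower, beside 9.45%. In muscle-like cells 9 members were at least 2-fold lower, beside 27.6% of all genes, with Nid2 the exception. Nid2 was at 22.8 CPM in control stromal-like and 15.1 CPM in control muscle-like cells, both within its interval in blood cells given below. This limits its contrasts with stroma in muscle-like and in valve endothelial-like cells. In the mutant library the arterial count was 5 and the muscle count 10, beside 13.9% and 29.7%. Mutant valve endothelial-like cells held 2 members at least 2-fold higher (Col18a1 and Hspg2), beside 12.1% of all genes, and 3 lower (Col15a1, Lamb1 and Lamc1), beside 10.2%.

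**Figure D1:**
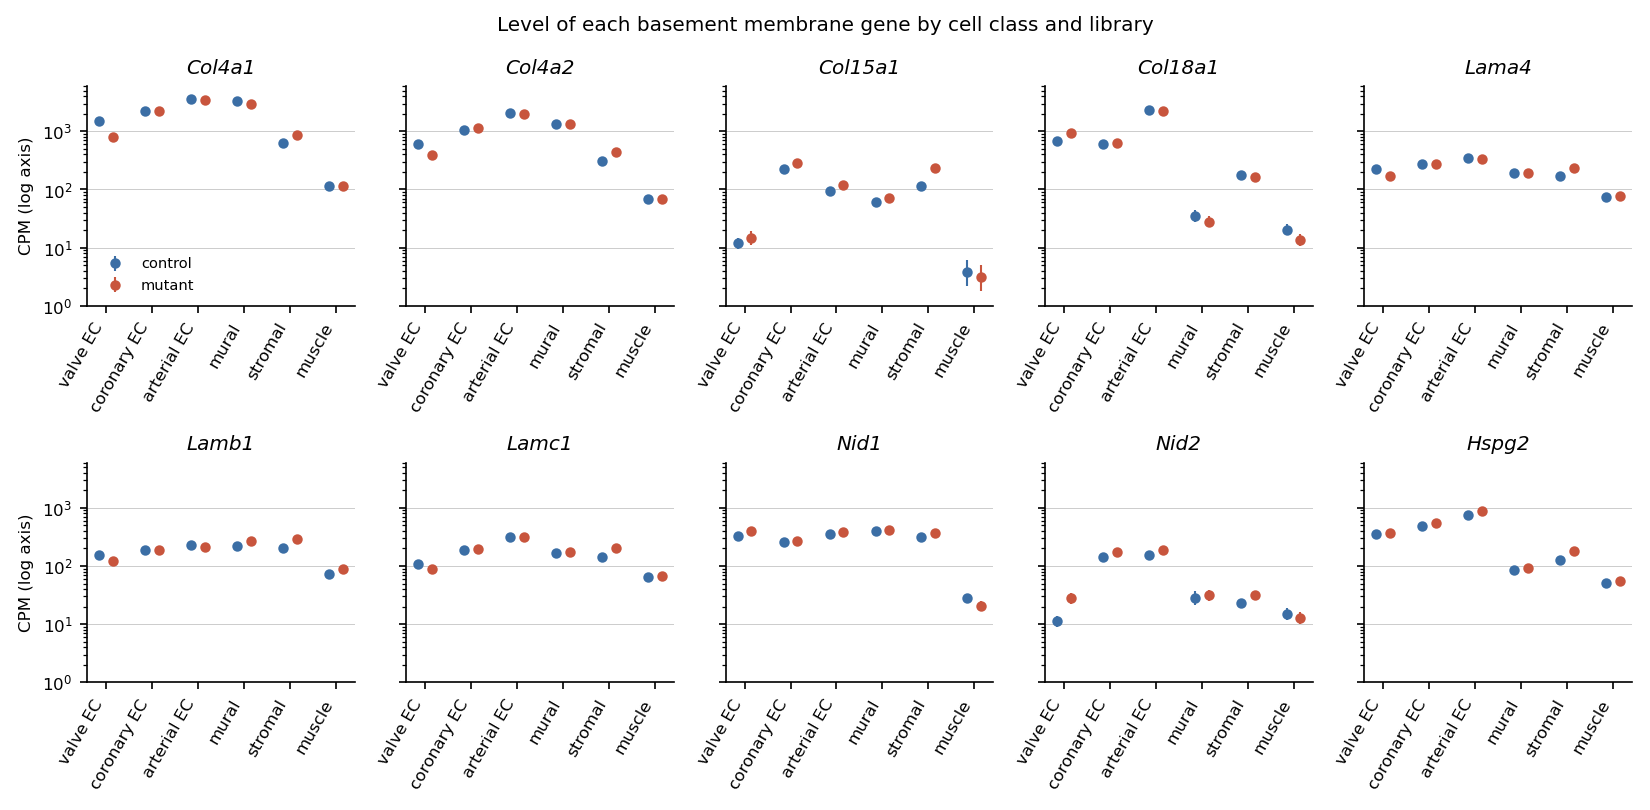
Level of each of the 10 genes (CPM, log axis) in 6 cell classes, control in blue and mutant in red, with exact Poisson 95% intervals that cover counting error only (EC, endothelial-like cells). Col4a1 and Col4a2 are highest in arterial endothelial-like cells, Col18a1 is low in mural-like cells at 35.5 and 27.9 CPM, and Nid2 and Col15a1 are low in valve endothelial-like cells.

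Col4a1 and Col4a2 encode the chains of the collagen IV trimer that is common to most basement membranes. Col4a1 was the most abundant member in 5 of the 6 classes in both libraries, the exception being valve endothelial-like cells of the mutant library, where Col18a1 was higher. Col4a1 stood at 3627 CPM (3522 to 3734) in control and 3416 (3336 to 3498) in mutant arterial endothelial-like cells. It was at 3285 and 2944 CPM in mural-like and at 2259 and 2246 CPM in coronary endothelial-like cells. Valve endothelial-like cells held 1483 CPM in the control and 812 in the mutant library, stromal-like cells 630.5 and 855 CPM, and muscle-like cells 117 and 113 CPM. Both libraries thus ran arterial, mural, coronary, but valve endothelial-like cells ranked above stromal-like ones in the control library, and in the mutant library the intervals of these 2 classes overlapped. Col4a2 had the same order in the control library, from 2096 CPM in arterial to 68.3 CPM in muscle-like cells, and from 1987 to 67.6 CPM in the mutant library.

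The UMIs of Col4a1 per UMI of Col4a2 moved little. Over 12 points (6 classes in 2 libraries) the ratio ran from 1.67 in mutant muscle-like to 2.48 in control valve endothelial-like cells, while the level of Col4a1 itself spanned 31.1-fold in the control library. Across 34 points, 17 clusters with at least 50 cells in each library, log2(CPM + 1) of the 2 genes had a Pearson r of 0.99, given as a description because clusters of 1 library share depth and free RNA. The genes lie head to head on mouse chromosome 8 (mm10; GENCODE M21): Col4a1 (ENSMUSG00000031502) at 11198423 to 11312826 on the minus strand and Col4a2 (ENSMUSG00000031503) at 11312805 to 11449287 on the plus strand. Their annotated starts are 21 bases apart, and the RefSeq windows of 250 bases before and 50 after each start share 78 bases. The stretch printed next was chosen because it holds the CCAAT box of the Col4a2 window, so the presence of that box in it is no result. It covers chromosome 8, 11312755 to 11312784, plus strand, begins 50 bases before the Col4a2 start and lies downstream of the Col4a1 start (RefSeq, GRCm38.p6). Capitals mark a GC box (GGGCGG, here as its reverse complement) and a CCAAT box.
Col4a2 promoter: cgCCGCCCgaggagctccCCAATttgttgg
Searched on both strands, GGGCGG occurs 3 times in the Col4a2 and once in the Col4a1 window, and is present in 35.7% of all 32851 promoter windows. CCAAT occurs once in each, and is present in 37.4% of all windows. The GC content of both windows, 73.7% and 74.0%, was above the median of 52.7%. A letter match describes the sequence and does not show that a factor binds.

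Collagens XV and XVIII, the products of Col15a1 and Col18a1, are the multiplexins, proteoglycan collagens of the basement membrane zone whose C-terminal fragments include restin and endostatin. They were distributed differently over the same classes. Col18a1 stood at 2367 CPM (2282 to 2453) in control and 2267 (2202 to 2334) in mutant arterial endothelial-like cells, at 674 and 918 CPM in valve and at 604 and 633 CPM in coronary endothelial-like cells. It fell to 175 and 163 CPM in stromal-like and to 35.5 and 27.9 CPM in mural-like cells, where Col4a1 was near its highest. Col15a1 was highest in coronary endothelial-like cells at 228 and 284 CPM, followed by stromal-like cells at 115 and 236 CPM. In valve endothelial-like cells Col15a1 was at 12.0 CPM (9.50 to 14.9; 81 UMIs) and 14.9 CPM (10.9 to 19.7; 48 UMIs).

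The UMIs of Col18a1 per UMI of Col15a1 therefore differed by class. In mural-like cells it was 0.584 and 0.398. Col18a1 there, at 35.5 and 27.9 CPM, was not far above blood cells, at 26.6 and 15.7 CPM, so free RNA limits this ratio. The ratio was 25.3 and 18.6 in arterial and 2.65 and 2.23 in coronary endothelial-like cells. None is read in valve endothelial-like cells, where Col15a1 was near its level in blood cells. Within the stroma the ratio differed by cluster: the control library held 313 CPM of Col18a1 and 31.8 of Col15a1 in cluster 1, against 43.0 and 261 CPM in cluster 7. The order of these 2 stromal clusters was thus opposite for the 2 multiplexins, and it was the same in the mutant library, with 359 and 84.5 CPM in cluster 1 and 49.1 and 322 CPM in cluster 7.

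**Figure D2:**
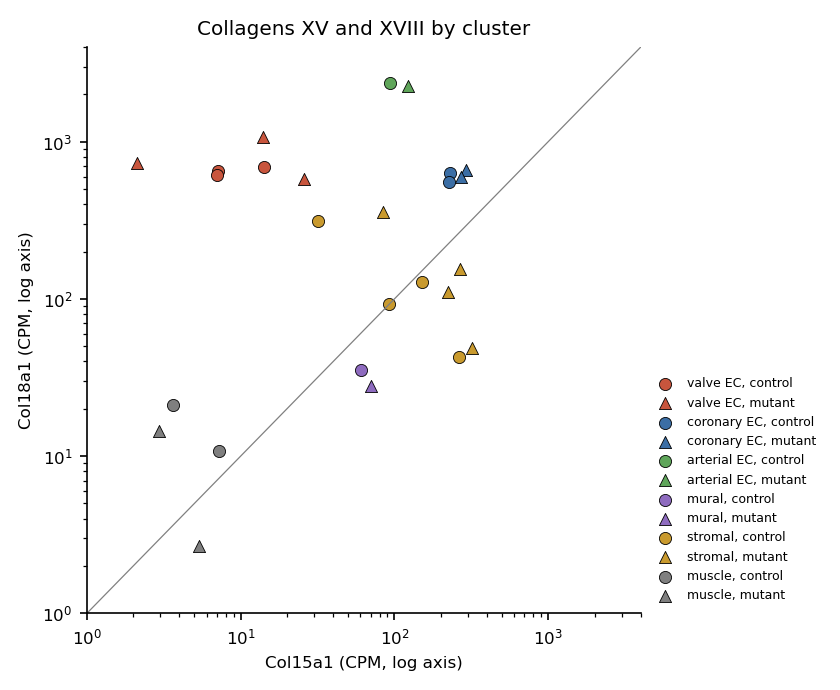
Col18a1 against Col15a1 (CPM, both log axes) in each cluster of the 6 classes, control as circles and mutant as triangles, with the line of equal level in grey. Valve endothelial-like clusters lie far above the line, coronary ones just above it, and stromal clusters run from cluster 1 above the line to cluster 7 below it. Col15a1 in valve endothelial-like cells overlaps its level in blood cells, so no ratio is read from the position of those clusters.

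Lama4, Lamb1 and Lamc1 encode chains that can assemble into one laminin trimer, laminin-411, a main endothelial laminin. Their levels spread less over the classes than those of collagen IV. Lama4 stood at 344 and 341 CPM in arterial, 274 and 276 in coronary and 222 and 167 in valve endothelial-like cells, 191 and 190 in mural-like, 171 and 236 in stromal-like and 74.2 and 77.3 in muscle-like cells, control first. Lamc1, the gamma chain that most laminins share, was at 316 and 321 CPM in arterial endothelial-like cells and at 108 and 87.9 CPM in valve endothelial-like cells. Lamb1 was at 227 CPM in control arterial endothelial-like cells with an interval that overlapped that of mural-like cells at 216 CPM. In the mutant library its highest levels were 293 CPM in stromal-like and 273 CPM in mural-like cells. Across the 34 cluster points Lama4 and Lamb1 had an r of 0.97 and Lamb1 and Lamc1 an r of 0.96, again without a test.

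Nid1 and Nid2 encode the nidogens, which bind both laminin and collagen IV. Nid1 was even over the non-muscle classes, from 262 CPM in coronary endothelial-like to 403 CPM in mural-like cells of the control library and from 267 to 421 CPM in the mutant library. Nid2 separated kinds of endothelium: it was at 156 and 189 CPM in arterial and 141 and 174 CPM in coronary endothelial-like cells, but at 11.2 and 27.9 CPM in valve endothelial-like cells. The UMIs of Nid1 per UMI of Nid2 were 1.86 and 1.53 in coronary endothelial-like cells, and no ratio is read in valve endothelial-like cells, where Nid2 over the whole class did not clear its level in blood cells. Hspg2, which encodes perlecan, was at 765 and 896 CPM in arterial, 485 and 539 in coronary and 353 and 371 in valve endothelial-like cells. It was lower in stromal-like cells at 128 and 180 CPM and in mural-like cells at 83.7 and 91.0 CPM, and its order of classes was the same in both libraries.

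Free RNA can add to these levels, and blood cells were used as a guide to it. Some classes lay below the blood level, so it is not a floor common to all classes. Blood cells (macrophage-, granulocyte-, mast- and lymphoid-like), which should hold few of these transcripts, carried 47.9 CPM of Col4a1 in the control library (551 cells, median 4456 UMIs) and 66.7 CPM in the mutant library (479 cells, median 8369 UMIs). The mutant value differed among the blood classes: macrophage-like cells, the most numerous, were at 44.6 CPM in the control and 42.0 CPM in the mutant library, whereas 41 granulocyte or monocyte-like and 29 lymphoid-like mutant cells were at 179.7 and 184 CPM. A Col4a1 UMI was present in 15.6% and 23.8% of blood cells, against 90.2% and 91.1% of valve endothelial-like cells (median 5179 and 10066 UMIs) and 57.1% and 69.7% of muscle-like cells (median 10470.5 and 16575.5 UMIs). Col15a1 in blood cells was at 7.49 CPM (4.58 to 11.6) and 11.5 CPM (8.41 to 15.3), so its level in valve endothelial-like cells overlapped this background in both libraries. Nid2 in blood cells was at 19.1 CPM (14.2 to 25.1) and 19.0 CPM (14.95 to 23.8). Control valve endothelial-like cells, at 11.2 CPM (8.84 to 14.05), did not exceed it, and mutant ones, at 27.9 CPM (22.4 to 34.2), overlapped it. Nid2 in control stromal-like cells, at 22.8 CPM, lay within the interval of blood cells, and in control mural-like cells it was little higher, at 28.2 CPM from 58 UMIs. Mutant stromal-like and mural-like cells were at 32.0 and 31.2 CPM. Muscle-like cells were at or below the blood level for Col15a1 and Nid2.

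Between the libraries, both collagen IV genes were lower and Nid2 was higher in mutant valve endothelial-like cells, the class nearest to the lineage that Nfatc1-Cre marks. Col4a1 was at 1483 CPM in control and 812 in mutant cells, a log2 ratio of mutant over control of -0.87 (-0.93 to -0.81). Col4a2 was at 597 and 397 CPM, a log2 ratio of -0.59 (-0.68 to -0.50), at the edge of the 1.5-fold limit used for counting. Nid2 was higher, with 76 UMIs in control and 90 in mutant cells, a log2 ratio of 1.31 (0.85 to 1.77). Its control level lay below that of blood cells given above, and its mutant level overlapped theirs. Of the 10 members, all with a mean of at least 10 CPM, 2 were thus at least 1.5-fold lower, beside 4.42% of the 8639 genes at that level, and 1 higher, beside 7.42%. The median log2 ratio of the members was -0.11 and that of all genes 0.06. Dicer1 itself was at 89.6 and 41.2 CPM, a log2 ratio of -1.12 (-1.40 to -0.85). As its 3′ counts may lie outside the deleted part, this does not check the deletion. Nfatc1 was at 126 and 156 CPM.

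The other members moved by less than 1.5-fold in this class. The laminin chains were lower, Lama4 with a log2 ratio of -0.40 (-0.55 to -0.26), Lamb1 with -0.31 (-0.48 to -0.14) and Lamc1 with -0.29 (-0.50 to -0.10). Col18a1 and Nid1 were higher, with 0.44 (0.38 to 0.51) and 0.25 (0.15 to 0.35), and Hspg2 was at 0.07 (-0.03 to 0.17). The sum over the 10 genes went from 3947 to 3317 CPM.

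**Figure D3:**
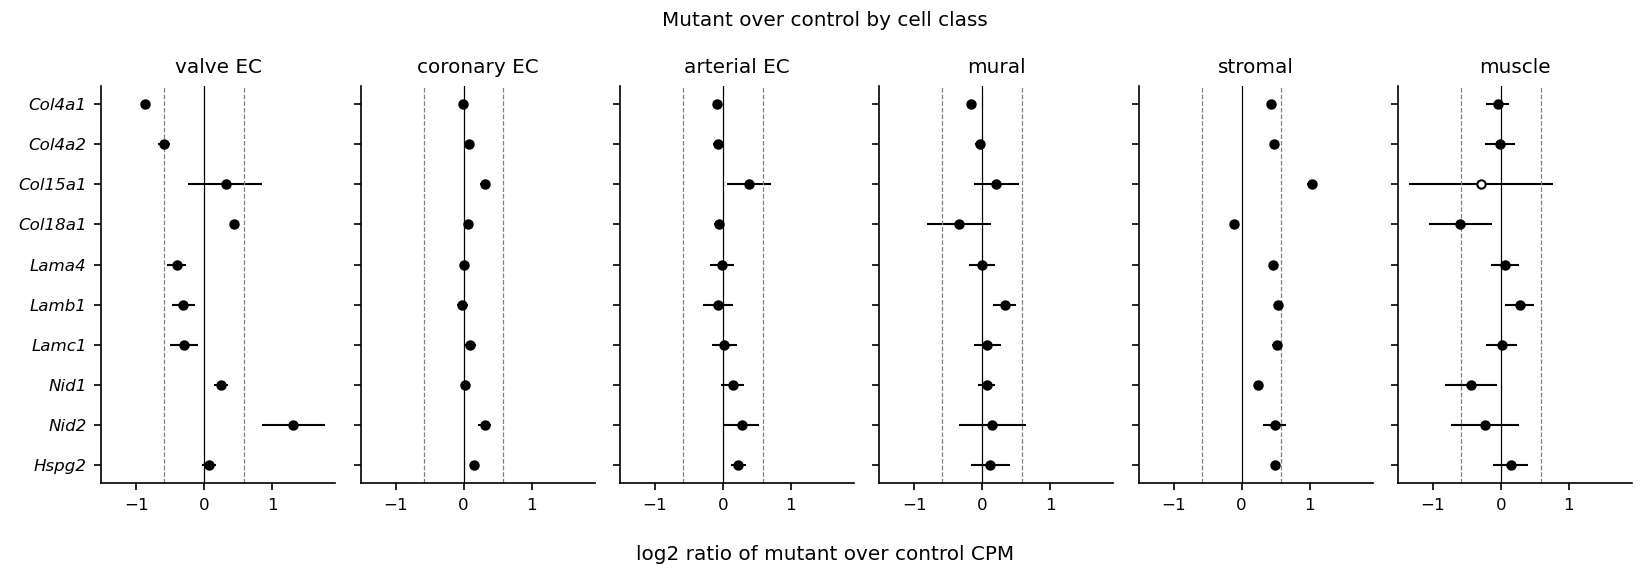
Log2 ratio of mutant over control CPM for the 10 genes in 6 cell classes, with exact conditional Poisson 95% intervals (counting error only), dashed lines at 1.5-fold and an open point where the mean is under 10 CPM (EC, endothelial-like cells). Col4a1 and Col4a2 lie to the left in valve endothelial-like cells at -0.87 and -0.59, and 9 of 10 genes lie to the right in stromal-like cells.

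Each of the 3 valve endothelial-like clusters showed lower collagen IV in the mutant library. Col4a1 was at 1641 and 1017 CPM in cluster 5 (909 and 224 cells), at 1276 and 620 CPM in cluster 14 (219 and 38 cells) and at 921 and 337 CPM in cluster 15 (131 and 52 cells). The log2 ratios were -0.69 (-0.76 to -0.62), -1.04 (-1.23 to -0.86) and -1.45 (-1.67 to -1.24). For Col4a2 they were -0.43, -0.75 and -1.02 in the same order. The background differed among them: 4.92%, 12.9% and 13.4% of all genes were at least 1.5-fold lower.

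Col18a1 passed 1.5-fold in cluster 5, at 692 and 1074 CPM, a log2 ratio of 0.63 (0.56 to 0.71), beside 8.46% of all genes at least 1.5-fold higher. In clusters 14 and 15 its log2 ratios were 0.17 (-0.01 to 0.35) and -0.07 (-0.27 to 0.12). The Nid2 difference was largest in cluster 15, with 6 UMIs in the control and 42 in the mutant library (7.05 and 60.3 CPM), a log2 ratio of 3.00 (1.85 to 4.62), beside 12.3% of genes higher. Only there was its mutant level above the interval of blood cells. Counted at 1.5-fold, 2 members were higher in cluster 5 (Col18a1 and Nid2) and 2 in cluster 15 (Col15a1 and Nid2). Lamc1 was lower in cluster 15, at 108 and 66.0 CPM, a log2 ratio of -0.70 (-1.25 to -0.19), while Lama4 was at -0.13 and Lamb1 at 0.14.

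**Figure D4:**
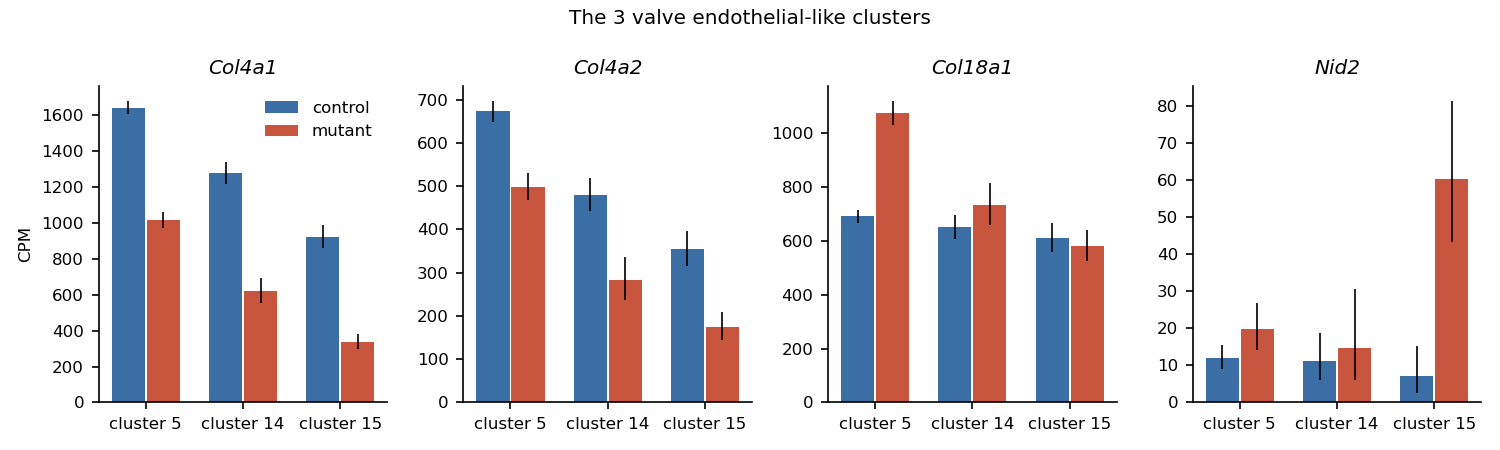
Level (CPM) of Col4a1, Col4a2, Col18a1 and Nid2 in the 3 valve endothelial-like clusters, control in blue and mutant in red, with exact Poisson 95% intervals that cover counting error only. Both collagen IV genes are lower in the mutant library in each cluster, Col18a1 is higher in cluster 5, and Nid2 is highest in mutant cluster 15 at 60.3 CPM.

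The pools differed in sex, so the same ratios were taken over female-type cells alone. In 1216 control and 160 mutant female-type valve endothelial-like cells Col4a1 was at 1487 and 707 CPM, a log2 ratio of -1.07 (-1.16 to -0.99), and the 122 male-type mutant cells were at 907 CPM. Within the mutant library male-type cells were thus above female-type ones, a log2 ratio of 0.36 (0.24 to 0.48). The control library held 1 male-type cell, so no male-type control level was available. The part of sex in the ratio was not tested. Col4a2 gave -0.76 and Nid2 1.06 in female-type cells. Transcripts of other cell types in this class did not all shift alike. The sum of 16 stromal markers was 3536 CPM in control and 3062 in mutant valve endothelial-like cells, with 4 of 11 tested markers at least 1.5-fold lower and none higher. The 14 mural markers summed to 127 and 108 CPM, the 12 muscle markers to 545 and 619 CPM, and 7 coronary markers to 594 and 692 CPM. The 9 granulocyte or monocyte markers summed to 18.3 and 63.8 CPM, with the 1 tested marker higher. The 7 lymphatic markers summed to 176 and 128 CPM, with 2 of 3 tested lower and none higher. Prox1 is on both the lymphatic and the valve endothelial marker lists and leads cluster 14. The lymphatic sum therefore holds transcripts of the class itself. Genes of the dissociation response summed to 1445 and 1877 CPM, with 2 of 8 tested higher and none lower. The part of these transcripts in the basement membrane ratios was not tested.

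In stromal-like cells the libraries differed in the other direction. Col15a1 was at 115 CPM (111 to 120) in control and 236 CPM (229 to 243) in mutant cells, a log2 ratio of 1.03 (0.97 to 1.10). It was the single member past 1.5-fold, beside 1.41% of 8602 genes higher and 1.57% lower. Of the other 9 members, 8 had log2 ratios between 0.24 for Nid1 and 0.54 for Lamb1, among them Col4a1 at 0.44 and Hspg2 at 0.50, and Col18a1 was at -0.11. The median of the 10 was 0.48, and that of all genes 0.0049. As Col15a1 was higher and Col18a1 was not, the UMIs of Col18a1 per UMI of Col15a1 went from 1.52 to 0.691.

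The make-up of the class differed as well. Cluster 1, the stromal cluster with the lowest levels of collagen IV and the laminin chains, was 44.4% of control and 26.5% of mutant stromal-like cells. With each cluster given the same weight in both libraries, the log2 ratio of Col15a1 was 0.79, that of Col4a1 0.19, that of Col4a2 0.25 and that of Lamb1 0.31, and Col18a1 changed sign to 0.22. Within clusters 1, 2, 6 and 7 all 10 members had ratios above 0. Their medians were 0.31, 0.28, 0.44 and 0.21, beside medians of all genes of 0.027, 0.022, -0.0066 and -0.0036. Col15a1 gave 1.41 (1.18 to 1.65), 0.82 (0.71 to 0.93), 1.27 (1.10 to 1.45) and 0.30 (0.19 to 0.42), beside 3.95%, 1.12%, 3.22% and 1.51% of all genes at least 1.5-fold higher. Nid2 was the only other member past 1.5-fold, in cluster 1 alone. The levels of Col15a1 in clusters 1 and 6 follow. In cluster 1 Col15a1 was at 31.8 and 84.5 CPM and in cluster 6 at 92.5 and 224 CPM, against 7.49 and 11.5 CPM in blood cells. Markers of other cells in the stromal-like class summed to 271 and 334 CPM for 14 endothelial, 1009.9 and 1013 CPM for 14 mural, 568 and 646 CPM for 12 muscle and 316 and 45.4 CPM for 6 erythroid genes. Of 11 tested mural markers 4 were at least 1.5-fold higher and none lower, and all 4 tested erythroid markers were lower. The part of these transcripts in the ratios was not tested.

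Sex also moved with these levels. Within the mutant library, male-type stromal-like cells exceeded female-type ones in Col15a1 (260 against 204 CPM) and Col4a1 (949 against 743 CPM) and were lower in Col18a1 (127 against 188 CPM). These cells come from different embryos. Over female-type cells alone Col15a1 was at 116 and 204 CPM, a log2 ratio of 0.81 (0.73 to 0.90), and Col4a1 was at 630.4 and 743 CPM, a log2 ratio of 0.24 (0.20 to 0.28). Thinned to 2000 UMIs per cell, which gives shallow and deep cells the same weight, 7 members passed 1.5-fold in stromal-like cells, and without the cycling cluster 2 there were 4, beside 3.42% and 2.46% of all genes at the 10 CPM mean of each setting. In both, Col15a1 was the highest, at 1.24 and 1.11.

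Coronary and arterial endothelial-like and mural-like cells had no member at least 1.5-fold apart, where 0.544%, 3.93% and 3.08% of all genes were higher and 0.321%, 4.42% and 1.67% lower. Col4a1 had log2 ratios of -0.01 (-0.03 to 0.02), -0.09 (-0.14 to -0.03) and -0.16 (-0.20 to -0.11) in these classes. In valve endothelial-like cells its log2 ratio was -0.87 (-0.93 to -0.81). These intervals cover counting error only within the same 2 libraries, and whether the classes differ was not tested. Col15a1 and Nid2 were above 0 in coronary and arterial endothelial-like and in mural-like cells. In coronary endothelial-like cells they were at 0.32 (0.25 to 0.39) and 0.31 (0.22 to 0.40). In mural-like cells Lamb1 was at 0.33 (0.16 to 0.50). Dicer1 had log2 ratios of -0.33 in coronary and -0.29 in arterial endothelial-like cells, -0.10 (-0.46 to 0.27) in mural-like and -0.17 in muscle-like cells. In stromal-like cells it was at 69.2 and 52.1 CPM, a log2 ratio of -0.41 (-0.52 to -0.30). In muscle-like cells Col18a1, with 91 and 74 UMIs (20.5 and 13.6 CPM), had a log2 ratio of -0.60 (-1.06 to -0.14), beside 1.91% of genes lower and 1.21% higher. This ratio was 0.68 after thinning and -0.05 without doublet removal, and Col18a1 in blood cells was at 26.6 and 15.7 CPM.

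Since Dicer1 makes microRNAs, the annotated 3′ UTRs of the members were searched for seed matches, the complement of bases 2 to 8 of a mature microRNA. The miR-29 family, long studied as a regulator of collagen transcripts, is shown because it had the most matches among the 5 families searched. All 3 mature forms carry the same seed, in capitals (RefSeq, GRCm38.p6).
mmu-miR-29a-3p: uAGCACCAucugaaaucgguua
mmu-miR-29b-3p: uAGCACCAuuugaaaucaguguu
mmu-miR-29c-3p: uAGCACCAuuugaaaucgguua
The match TGGTGCT occurred 5 times, in the longest annotated 3′ UTRs of 4 of the 10 members, and is present in 13.1% of all 20739 UTRs. Each is printed with 7 bases on either side, match in capitals.
Col4a1, chromosome 8, 11199762 to 11199768, minus strand: cacaacaTGGTGCTactcccc
Col4a2, chromosome 8, 11448359 to 11448365, plus strand: gccacgtTGGTGCTtatcctt
Col4a2, chromosome 8, 11448530 to 11448536, plus strand: cccagctTGGTGCTtactctt
Col15a1, chromosome 4, 47312500 to 47312506, plus strand: cacatatTGGTGCTagattct
Lamc1, chromosome 1, 153220069 to 153220075, minus strand: gacacacTGGTGCTattaatt

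Among UTRs of like length, between 80% and 125% of the member's own, the match is present in 12.7% for Col4a1 (1378 bases), 9.84% for Col4a2 (971 bases), 9.0% for Col15a1 (877 bases) and 24.2% for Lamc1 (2551 bases). The other families gave fewer: let-7 had 2 matches, both in Nid1, miR-30 had 1, and miR-92a and miR-126 had none. In valve endothelial-like cells the members with a miR-29 match had log2 ratios of -0.87 for Col4a1 and -0.59 for Col4a2. Col15a1 was at 0.32 (-0.23 to 0.85) and Lamc1 at -0.29. Of those without a match, Lama4 and Lamb1 were at -0.40 and -0.31, and Col18a1, Nid1, Nid2 and Hspg2 were above 0. In stromal-like cells 9 of the 10 members were above 0, both with and without a match. The part of microRNAs in these ratios was not tested. The UTRs of Lama4 and Lamb1, at 155 and 151 bases, are short. A match describes the sequence only, and mature microRNAs were not measured.

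A further 4 lists of related genes set the members beside the rest of the basement membrane system in valve endothelial-like cells. Of 15 other components with a mean of at least 10 CPM, out of 28 listed, 2 were at least 1.5-fold higher and 3 lower, beside the 7.42% of all genes higher and 4.42% lower in this class, to which the counts of the other lists compare too. The lower ones were Hmcn1 (hemicentin, a large extracellular matrix protein) at 643 and 369 CPM, a log2 ratio of -0.80 (-0.89 to -0.71), Col4a5 (a further collagen IV chain) at -0.93 and Frem1 at -1.04. The higher ones were Tinagl1, a matricellular protein, at 136 and 270 CPM and a log2 ratio of 0.98 (0.85 to 1.12), and Ntn4, a netrin that binds laminin, at 0.69. Of 13 measured receptors, out of 19, 3 were higher and none lower. Itga1, the integrin chain that pairs with Itgb1 to bind collagens including collagen IV, was at 49.8 and 124 CPM, a log2 ratio of 1.32 (1.11 to 1.53). Bcam, a laminin receptor, was at 1.02 (0.82 to 1.21), and Itgb4 at 0.85 (0.48 to 1.22).

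Of 18 measured genes for the assembly of collagen IV and laminin, out of 19, 4 were higher and 1 lower. P4ha2, a subunit of prolyl hydroxylase, was at 27.6 and 75.8 CPM, a log2 ratio of 1.46 (1.18 to 1.74). The lysyl hydroxylases Plod2 and Plod3 were at 0.88 and 0.79, and Colgalt2, a collagen galactosyltransferase, at 1.33 from 54 and 65 UMIs. Loxl2, a lysyl oxidase that crosslinks collagen IV, was lower, at 93.5 and 54.2 CPM and a log2 ratio of -0.78 (-1.04 to -0.54). Pxdn, peroxidasin, which forms sulfilimine crosslinks in collagen IV, was at -0.04 (-0.20 to 0.11). Of 15 measured proteases and inhibitors, out of 23, 2 were higher: Adamts5 at 1.16 (0.94 to 1.37) and Plat, tissue plasminogen activator, at 0.78 (0.57 to 0.99). The medians of the 4 lists were -0.11, 0.18, 0.32 and 0.21 beside 0.06 for all genes. Col4a1, Col4a2, Col4a5 and Loxl2 were thus lower in the same class in which P4ha2, Plod2 and Plod3 were higher. Most of the 18 assembly genes stayed within 1.5-fold, so these names do not stand for the list.

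**Figure D5:**
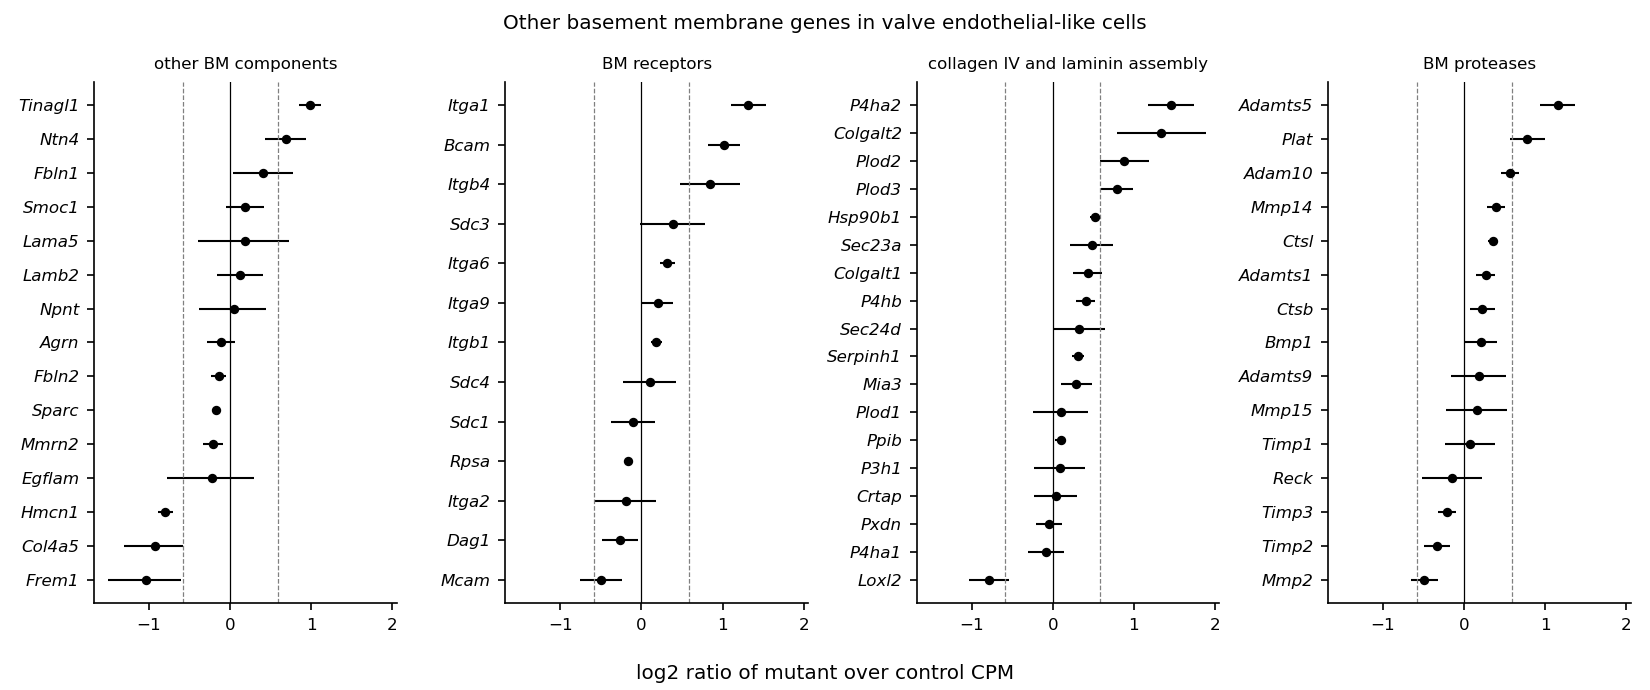
Log2 ratio of mutant over control CPM in valve endothelial-like cells for the measured genes of 4 lists (BM, basement membrane), with exact conditional Poisson 95% intervals (counting error only) and dashed lines at 1.5-fold. Hmcn1, Col4a5, Frem1 and Loxl2 lie at the left, and Itga1, Bcam, P4ha2 and Adamts5 lie at the right.

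In stromal-like cells the same lists gave 1 higher and 1 lower of 12 components, 1 and 1 of 15 receptors, none of 18 assembly genes, and 1 higher and none lower of 14 proteases and inhibitors, beside 1.41% of all genes higher and 1.57% lower. Smoc2, a SPARC-related calcium-binding protein, was at 48.0 and 86.0 CPM with a log2 ratio of 0.84 (0.73 to 0.95), and it also leads cluster 7, whose share of the class was larger in the mutant library at 25.5% against 15.8%. Plat was at 0.76 (0.66 to 0.87) and Bcam at 0.77 (0.49 to 1.05). Gpc1, a heparan sulfate proteoglycan of the cell surface, was at -0.74 (-0.95 to -0.53) and Ntn4 at -0.61 (-0.83 to -0.39).

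Other genes followed the members over the 34 cluster points. Among 9045 genes, members left out, the 5 with the highest Pearson r of log2(CPM + 1) to Col4a1 were Map4k4 (0.93), Mfge8 (0.93), Dock1 (0.91), Sparcl1 (0.90) and Pxdn (0.90). For Hspg2 they were Ephb4 (0.95), Tspan9 (0.94), Itga5 (0.93), Plcg1 (0.93) and Heg1 (0.92). For Lama4 they were Pxdn (0.93), Cdc42bpa (0.93), Armcx1 (0.92), Nectin3 (0.91) and Nav1 (0.91). These are descriptions over clusters that share 2 libraries, with no test.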

How the data were processed

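Counts are the raw UMI counts per gene and barcode that the authors deposited, for which the submitters' processing notes name Cell Ranger 5.0.0 and the mm10 build. No barcode holds under 500 UMIs, and counting options and annotation release are not given in the sources used here. Barcodes with at least 500 genes, 1000 UMIs and under 20% mitochondrial UMIs were kept, and Scrublet calls at an expected 0.8% per 1000 barcodes were removed (scanpy 1.11.5), 3.83% of control and 3.33% of mutant cells, so doublets may remain. Both libraries were clustered together without integration on 2000 variable genes, 30 components and 15 neighbours by Leiden at resolution 0.8 (leidenalg 0.10.2). A cluster was named when at least 3 class markers were detected in 10% of its cells and stood 1.5-fold above the median cluster, with a lead of 1 log2 over the next class. These naming rules were set with the data known. Cluster 3 (mural score within that lead of its stromal score), cluster 8 (a mural marker and no stromal one among its leading genes) and cluster 13 (low UMI count) stayed unnamed.

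For each class, UMIs of a library were added up and expressed as CPM, with exact Poisson intervals. Log2 ratios had 0.5 counts added and exact conditional Poisson intervals. Genes with a mean of at least 10 CPM were counted at 1.5-fold. The ratio rule was tested on simulated data that held counting error only. Such data cannot show how the rule does where pools, embryos or cells differ. A 3′ UMI counts 1 tag per molecule, so levels of genes were compared without division by length. The genes named are all 10 members, Dicer1, Nfatc1, the members of each other list with the largest absolute ratios (up to 4 in a described class), and the 5 most alike by correlation to Col4a1, Hspg2 and Lama4. Ntn4, Loxl2 and Pxdn in valve endothelial-like cells were added after their values were seen. The members and lists were chosen with earlier results of these data known. Positions and 3′ UTRs are from GENCODE M21, and promoters and microRNAs from RefSeq tables. Of the members, 7 had a promoter window.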

Additional observations from a re-analysis of the deposited data

How the results depend on the processing

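Of 158 counts of members under another setting, 134 stayed within 1.5 times the main count and 24 did not, and the cause was not tested. Shares over all genes are given above only for thinning and for leaving out cycling clusters in stromal-like cells. The other counts below have no such share beside them and are not read as results about the members. In valve endothelial-like cells 1 member was lower, not 2, without doublet removal, at resolution 1.5, with basement membrane genes used for clustering, after thinning and with the same cluster weights, and 0 at 2-fold. The member lost first was Col4a2, which passed 1.5-fold in 5 of 10 alternatives (-0.76 to -0.45), whereas Col4a1 (-1.07 to -0.77) and Nid2 (1.06 to 1.40) passed in all 10. Higher members numbered 2 at resolution 1.5 and 0 at a floor of 50 CPM. In arterial endothelial-like cells 1 was higher under the stricter filter and with a class per cell, and in mural-like cells 1 after thinning. In stromal-like cells 7 were higher after thinning and 4 without cycling clusters, and Col15a1 (0.79 to 1.24) passed in all 12 alternatives, including 1 chosen after seeing the data that adds unnamed clusters 3 and 8. In muscle-like cells 2 were lower under the stricter filter and 0 without doublet removal, at resolution 1.5, with a class per cell, after thinning, in female-type cells, with ratios centred on all genes, at a floor of 50 CPM and at 2-fold, and 1 was higher without doublet removal and after thinning. Col18a1 in muscle-like cells reversed after thinning, to 0.68. Of 590 log2 ratios, 479 stayed within the counting interval, 110 moved and 1, past 1.5-fold to start with, changed sign. A further 61 that had been within 1.5-fold also changed sign and are counted among the others, such as stromal-like Col18a1 from -0.11 to 0.22 with the same cluster weights. With genes apart between the libraries left out of clustering, no arterial endothelial-like class formed. No paired analysis was possible because each genotype has 1 library. Depth limits Nid2 and Col15a1 in valve endothelial-like cells, at 76 and 81 control UMIs.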
